A study of Homo sapiens with 2 samples.

Results

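The regions described here were 894 tiles inside protein-coding genes that were far less methylated in SKNO-1 than in SKNO-siAE. A tile was a window of 500 bp on the 22 autosomes of hg19 in which 10 or more CpG cytosines each had 5 or more reads in both libraries. Its level was the mean, over those cytosines, of methylated reads divided by all reads, so that 0 means no methylated read and 1 means only methylated reads. A tile was chosen when its level in SKNO-1 minus its level in SKNO-siAE was -0.6 or lower, and when it overlapped a protein-coding gene but not the 1500 bp before or the 500 bp after the start of a protein-coding transcript. Of the 37146 tested tiles in gene bodies, 894 (2.41%) met the rule, beside 3561 (3.57%) of all 99847 tested tiles. In the opposite direction, 280 gene-body tiles (0.754%) and 797 of all tiles (0.798%) had a difference of 0.6 or more. The members were thus chosen by the measured difference between the libraries, and their levels and differences are given as a description, with no test.

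SKNO-1 is an acute myeloid leukaemia cell line with the RUNX1-RUNX1T1 fusion (also called AML1-ETO), and SKNO-siAE, labelled SKNO1-siAE, was made from it with a lentiviral vector whose small interfering RNA targets the junction of the fusion transcript. Genomic DNA of each line was treated with bisulfite, which leaves methylated cytosines and converts unmethylated ones, and CpG-rich regions were captured and sequenced (MCC-Seq). There was 1 library per line, the counts summed to 83620068 and 82164216 over 4713346 and 4694016 cytosines, where a read counts once at each cytosine it covers, and no replicate gives a spread for any difference. Silencing of the fusion, infection with the vector and separate culture cannot be told apart in this pair. A line with an empty vector was not analysed here, the labels do not say whether SKNO-siAE was 1 clone, and the methylation files hold no expression against which the cell type or the silencing could be checked. On the mitochondrial DNA, which serves as a background for incomplete conversion, the methylated share of reads was 0.351% in SKNO-1 versus 0.378% in SKNO-siAE.

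In mammalian cells most CpG sites inside genes are methylated, while CpG islands, which are short stretches rich in CpG, are usually unmethylated when they lie at gene starts. Islands that lie inside genes are more variable: they can act as alternative or noncoding promoters or as enhancers, and their methylation differs between cell types and in leukaemia. Methylation is written by DNMT enzymes, copied at replication with the help of UHRF1 and removed through oxidation by TET enzymes.

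Sequences from 5 tiles are shown because every measured cytosine of the printed stretches differed completely between the libraries. The choice by number of cytosines favours DNA dense in CpG, and 543 of the 894 members were not island-like by the definition given below, with a median of 17 CpG dinucleotides per tile. The first 4 were the members that had the most cytosines among those with no methylated read in SKNO-1 and only methylated reads in SKNO-siAE, and the fifth lay in CBFA2T3, a gene with many members that belongs to the same family as RUNX1T1. Each is the middle 300 bases of its tile on the + strand of hg19 (GRCh37 reference assembly), 5′ to 3′, with every CpG in capitals.
FZD5, chr2:208633101-208633400: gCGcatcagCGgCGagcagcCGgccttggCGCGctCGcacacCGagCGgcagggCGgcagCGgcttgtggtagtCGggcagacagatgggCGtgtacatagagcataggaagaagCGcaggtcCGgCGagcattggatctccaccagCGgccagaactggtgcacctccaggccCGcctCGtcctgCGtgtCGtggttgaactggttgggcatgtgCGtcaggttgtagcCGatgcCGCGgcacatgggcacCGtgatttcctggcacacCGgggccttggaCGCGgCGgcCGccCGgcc
KCNG2, chr18:77558601-77558900: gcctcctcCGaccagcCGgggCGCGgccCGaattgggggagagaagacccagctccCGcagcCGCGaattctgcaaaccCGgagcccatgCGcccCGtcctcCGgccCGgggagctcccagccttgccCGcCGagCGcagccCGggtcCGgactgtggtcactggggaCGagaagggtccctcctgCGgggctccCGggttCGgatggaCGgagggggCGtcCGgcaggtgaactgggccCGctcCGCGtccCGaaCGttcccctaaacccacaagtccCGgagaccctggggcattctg
ZFPM1, chr16:88600601-88600900: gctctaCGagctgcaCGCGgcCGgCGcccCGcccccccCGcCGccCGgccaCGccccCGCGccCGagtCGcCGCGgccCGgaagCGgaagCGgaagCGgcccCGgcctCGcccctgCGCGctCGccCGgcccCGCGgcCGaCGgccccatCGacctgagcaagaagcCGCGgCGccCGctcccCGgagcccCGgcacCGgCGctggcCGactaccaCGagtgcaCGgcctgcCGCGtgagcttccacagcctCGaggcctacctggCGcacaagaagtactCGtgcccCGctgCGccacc
GABRB1, chr4:47034601-47034900: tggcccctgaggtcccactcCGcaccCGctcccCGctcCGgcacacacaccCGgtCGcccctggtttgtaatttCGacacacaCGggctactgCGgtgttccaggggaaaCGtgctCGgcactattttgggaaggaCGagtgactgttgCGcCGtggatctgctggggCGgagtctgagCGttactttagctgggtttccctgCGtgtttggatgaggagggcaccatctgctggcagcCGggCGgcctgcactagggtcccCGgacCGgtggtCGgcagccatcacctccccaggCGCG
CBFA2T3, chr16:88989101-88989400: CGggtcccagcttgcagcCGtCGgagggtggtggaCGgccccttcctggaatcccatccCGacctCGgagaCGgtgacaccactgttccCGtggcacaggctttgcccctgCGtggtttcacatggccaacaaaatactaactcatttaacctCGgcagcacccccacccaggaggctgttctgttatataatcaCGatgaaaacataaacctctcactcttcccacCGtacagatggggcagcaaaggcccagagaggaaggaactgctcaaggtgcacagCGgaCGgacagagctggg

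The first 4 of these stretches were dense in CpG. The FZD5 stretch held 32 CpG dinucleotides at a GC content of 68%, the ZFPM1 stretch 49 at 79.3%, the KCNG2 stretch 31 at 72% and the GABRB1 stretch 24 at 65%. The CBFA2T3 stretch was of another kind, with 14 CpG dinucleotides at a GC content of 57.7%. Only some of the cytosines in these stretches were measured in both libraries, 20 of 64 in FZD5, 11 of 62 in KCNG2, 9 of 98 in ZFPM1, 8 of 48 in GABRB1 and 9 of 28 in CBFA2T3, counting both strands. Every measured one of them was at 0 in SKNO-1, whereas in SKNO-siAE each was at 1.

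Over the 894 members the median level was 0.0544 in SKNO-1, with quartiles of 0.00883 and 0.149, and 0.909 in SKNO-siAE, with quartiles of 0.827 and 0.959. The highest SKNO-1 level was 0.388 and the lowest SKNO-siAE level was 0.606. The 2 libraries therefore did not overlap, which the rule fixes for any tile it can choose. The difference ranged from -1 to -0.6 with a median of -0.799, whereas the 32725 gene-body tiles with a SKNO-siAE level of 0.6 or more, the tiles that could have met the rule and that serve below as the comparison tiles, had a median difference of -0.0197. Many members lay near the ends of the scale. In 285 members (31.9%) the level was 0.1 or lower in SKNO-1 and 0.9 or higher in SKNO-siAE, and 157 members held no methylated read in SKNO-1. There were 31 members with only methylated reads in SKNO-siAE, and 8 members had both. Intermediate levels were the minority: 160 members had a SKNO-1 level of 0.2 or more, and 108 had a SKNO-siAE level under 0.75.

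The levels of single cytosines are the values that were averaged for the rule, so they describe the members and give no separate support. The members held 19385 cytosines, of which 80.9% had a level of 0.1 or lower in SKNO-1 and 73.9% a level of 0.9 or higher in SKNO-siAE. Both held at 58.6% of the cytosines, and 957 (4.94%) were not lower in SKNO-1. The strands gave similar values where both were read. Of the 618 members with at least 5 cytosines on each strand, 471 had a difference of -0.6 or lower on both strands and 600 had one of -0.4 or lower on both, with medians of -0.808 on the + strand and -0.825 on the - strand. The median gap between strands was 0.0958 and the widest was 1.04. In 147 members every measured cytosine was on the same strand, so that no such comparison could be made.

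The members had slightly fewer reads than the comparison tiles. Their median depth per cytosine was 14.8 reads in SKNO-1 versus 15.7 in SKNO-siAE, against 18.2 and 18.5 in the comparison tiles. The median log2 ratio of SKNO-1 to SKNO-siAE reads was -0.17 in the members, -0.0395 in the comparison tiles and 0.258 in the 280 tiles that were higher in SKNO-1. More reads in SKNO-1 than in SKNO-siAE were found in 41.7% of the members and in 47.7% of the comparison tiles, so the library with the lower level tended to have fewer reads. The part of this in the result was not tested. Among the 13527 gene-body tiles whose read numbers differed by no more than 25%, 296 (2.19%) were members and 77 had a SKNO-1 level higher by 0.6 or more.

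At the limit, the values ran on without a gap. Just inside it were tiles in NACC2 (0.388 in SKNO-1 versus 0.988 in SKNO-siAE), CDON (0.265 and 0.865) and WNT1 (0.306 and 0.906), with differences of -0.6, -0.6 and -0.6001. Just outside it were tiles in PDGFRB (0.0341 and 0.634), LTBP3 (0.209 and 0.809) and HTR1E (0.15 and 0.749), with differences of -0.5998, -0.5995 and -0.5993.

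The members were richer in CpG than the comparison tiles, although the minimum of 10 measured cytosines, the only way in which CpG number entered the rule, was the same for both. Their median GC content was 0.59 against 0.564, their median ratio of observed to expected CpG was 0.556 against 0.495, and they held a median of 23 against 19 CpG dinucleotides. A tile was called island-like when its GC content was at least 50% and its ratio of observed to expected CpG at least 0.6. Island-like sequence was found in 351 members (39.3%) and in 20.7% of the comparison tiles. Read the other way, 5.19% of the island-like comparison tiles were members, against 2.09% of the rest. The share of members was 1.97% among tiles with 0 to 9 CpG dinucleotides, 2.31% with 20 to 29, 4.77% with 30 to 39, 8.18% with 40 to 49 and 7.06% with 50 or more. In the 280 gene-body tiles higher in SKNO-1, 24.3% were island-like, and the medians were 0.564 for GC content, 0.5 for the ratio and 19 for CpG dinucleotides. The members of the 2 kinds also differed in how complete the split was: 41.9% of island-like members, but 25.4% of the others, were at 0.1 or lower in SKNO-1 and 0.9 or higher in SKNO-siAE. The levels in this last comparison come from the same contrast as the rule, so the shares are descriptive.

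The members lay nearer to gene starts than the comparison tiles, although promoters had been left out. The median distance from the tile centre to the nearest start of a protein-coding transcript was 6.41 kb against 11.8 kb. Tiles within 1 kb of a start, which are those just beyond the excluded promoter, were members in 8.91% of cases, tiles at 1 to 2 kb in 5.05%, and tiles at 20 kb or more in 1.84%. CpG density and distance went together, with a median of 33 CpG dinucleotides in members within 1 kb and of 19 in members at 20 kb or more. Island-like tiles more than 5 kb from a start were members in 3.93% of cases (161 tiles), and tiles at 20 kb or more without island-like sequence in 1.51% (151 tiles). Along the gene, 29.5% of the members but 16.8% of the comparison tiles lay at a relative position of up to 0.2 from the start. Starts of long noncoding RNAs were not excluded by the rule, and 103 members (11.5%) overlapped the same interval around such a start, against 5.63% of the comparison tiles. The 280 gene-body tiles that were higher in SKNO-1 had a median start distance of 5.38 kb, 30.4% at a relative position of up to 0.2 and 10% at the start of a long noncoding RNA.

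By annotation, 512 members (57.3%) lay in introns alone and 264 (29.5%) touched a coding exon, where the comparison tiles had 50.7% and 38.8% and the tiles higher in SKNO-1 had 55.7% and 31.1%. A further 58 members (6.49%) touched a 3′ UTR, 8 a 5′ UTR and 52 (5.82%) another exon. Of the coding-exon members 39% were at 0.1 or lower in SKNO-1 with 0.9 or higher in SKNO-siAE, against 29.3% of the intronic members. The annotation includes rare long transcripts, and 105 members (11.7%), against 7.39% of the comparison tiles, lay outside the canonical transcript of their gene.

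Short letter motifs of transcription factors were counted on both strands of each tile, and a letter could count for more than 1 motif. The string TGTGGT, 1 form of the core bound by RUNX1 and the fusion protein, was found in 25.5% of the members and 26.9% of the comparison tiles. Other forms of the RUNX motif were not counted, so these shares do not cover all RUNX sites. The motif of GATA factors, with the letters AGATAA, was found in 13.8% and 13.3%, that of C/EBP factors, TTGCNNAA, in 14.9% and 14.3%, that of AP-1, TGANTCA, in 9.28% and 9.59%, and the E-box, CACGTG, in 12.8% and 16.2%. The motif of ETS factors, CCGGAA, was found in 22.1% and 14.9%, and that of SP factors, GGGCGG, in 49.4% and 34.5%. Both of the last contain a CpG, as does the E-box, and the members held more CpG. Among island-like tiles alone the shares were 25.4% and 18.7% for ETS, 72.1% and 55.1% for SP, and 16.5% and 20.7% for the string TGTGGT. These are matches of letters in the tiles and not measured binding.

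The low level in SKNO-1 was local. Within 250 bp of the tile centres the mean level was 0.105 to 0.106 in SKNO-1 versus 0.87 to 0.872 in SKNO-siAE. At 1000 to 1250 bp on the downstream side it was 0.644 and 0.812, and at 1000 to 1250 bp on the upstream side, toward the gene start, 0.444 and 0.658. The upstream side thus stayed lower in both libraries, and at 4750 to 5000 bp the values were 0.632 and 0.745 upstream and 0.731 and 0.796 downstream. In the comparison tiles the central values were 0.83 to 0.832 and 0.902 to 0.903, and their profile had no trough in either library. They too were lower upstream than downstream at 4750 to 5000 bp, at 0.7 and 0.766 upstream and 0.761 and 0.82 downstream.

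Neighbouring tiles showed how far single regions reached. Of the 598 tested tiles directly beside a member, 218 were members themselves, 53 were lower by 0.6 or more without being members (50 of them in a promoter) and 144 were lower by 0.2 to 0.6. In 102 the level was 0.8 or more in both libraries and in 30 it was under 0.2 in both. A further 3 were higher in SKNO-1 by 0.2 or more. The 894 members formed 785 runs, of which 687 were single tiles, 87 were runs of 2 tiles and 11 of 3 tiles. For 393 members no neighbour was tested, and their extent is not known.

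The promoters of the genes that held members were described from the same pair of libraries. A promoter level was the mean over measured cytosines from 1500 bp before to 500 bp after the starts of a gene's protein-coding transcripts. In a gene with several starts, an intermediate level can therefore average starts of unlike level. Of 673 such genes with a measured promoter, 142 (21.1%) had a promoter level under 0.2 in both libraries and 80 (11.9%) one of 0.8 or more in both, against 31.4% and 13.8% of all 8158 genes with a comparison tile and a measured promoter. The promoter was lower in SKNO-1 by 0.6 or more in 39 genes (5.79%) and by 0.2 to 0.6 in 140 (20.8%), while over all 8158 genes the shares were 2.7% and 13%. It was higher in SKNO-1 by 0.2 or more in 18 genes (2.67%, against 2.56%).

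The 12 genes whose tile had the lowest difference included 8 with a difference of -1. FZD5 encodes a Frizzled receptor for Wnt ligands, and its tile at chr2:208633001-208633500, in the coding exon, had 0 of 131 methylated reads in SKNO-1 (Wilson 95% interval of the share 0 to 0.0285) and 147 of 147 in SKNO-siAE. KCNG2 encodes a modifier subunit of voltage-gated potassium channels, and its intronic tile at chr18:77558501-77559000 had 0 of 158 reads (0 to 0.0237) and 113 of 113. ZFPM1, also known as FOG1, is a GATA cofactor of erythroid and megakaryocyte cells, and its tile at chr16:88600501-88601000, in a coding exon 96.8% of the way along the gene, had 0 of 107 reads (0 to 0.0347) and 120 of 120. GABRB1 encodes a subunit of GABA-A receptors, and its tile at chr4:47034501-47035000 had 0 of 119 (0 to 0.0313) and 136 of 136. The focal adhesion adaptor gene PXN had 0 of 157 (0 to 0.0239) and 114 of 114 in a coding exon at chr12:120652501-120653000. These intervals cover counting error only: reads carry no molecular identifiers, whether PCR duplicates were removed is not given in the sources used here, and cytosines on 1 read are not independent.

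The other tiles with a difference of -1 rested on fewer reads in SKNO-1. In SSBP4, a gene of the single-stranded DNA-binding protein family, the counts were 0 of 55 in SKNO-1 versus 266 of 266 in SKNO-siAE. GALNT9, a glycosyltransferase gene, had 0 of 95 and 132 of 132 in a tile outside its canonical transcript. CLIP2, which encodes a linker protein of microtubules, had 0 of 55 and 172 of 172. For 0 of 55 reads the Wilson 95% interval of the share was 0 to 0.0653. Next came CRADD, a death-domain adaptor gene, with 0 of 281 and 144 of 145 reads, and TMIGD3, with 1 of 269 and 410 of 411, also outside the canonical transcript. FCAR, the gene of the IgA receptor of myeloid cells, had 1 of 191 and 134 of 134, and ITPKA, an inositol trisphosphate kinase gene, had 0 of 122 and 135 of 137. Promoters of these genes differed widely in level. The promoter mean was 0.01 in SKNO-1 versus 0.0281 in SKNO-siAE for ZFPM1 and 0 in both for ITPKA, yet 0.927 and 0.971 for GABRB1 and 0.791 and 0.879 for FZD5.

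Members were found in 717 of the 8720 genes with a comparison tile (8.22%). Of these genes 540 held 1 member, 177 held at least 2 and 39 at least 3. In 101 genes every tested gene-body tile was a member, and in 14 of them there were at least 2 such tiles. The number of comparison tiles differed widely between genes with many members: PTPRN2, a receptor-type phosphatase gene of secretory vesicles, held 6 members among 377 comparison tiles, while OSTM1 held 6 among 19 and NFIX 5 among 16.

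OSTM1, a gene whose loss causes osteopetrosis, had 4 members within chr6:108436001-108440000 and 2 at chr6:108454501-108455500. They lay outside the canonical transcript, in introns and noncoding exons of long alternative transcripts. SKNO-1 levels ranged from 0.0182 to 0.259 and SKNO-siAE levels from 0.926 to 0.983. These tiles had 1917 reads in SKNO-1 but 5232 in SKNO-siAE, and on chromosome 6 as a whole the median log2 read ratio was -0.73 over its 37 members and -0.41 over its comparison tiles. The part of the read numbers in the levels was not tested.

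NFIX, which encodes a nuclear factor I transcription factor, had 2 members just after its start and a run of 3 farther into the gene. In the first pair at chr19:13107001-13108000, none of 175 and 402 reads was methylated in SKNO-1, and the SKNO-siAE levels were 0.917 and 0.978. The run at chr19:13124001-13125500 held 107 cytosines, and its tiles had SKNO-1 levels of 0.111, 0.0165 and 0.00449 beside SKNO-siAE levels of 0.742, 0.967 and 0.923. The middle tile was deeply read, with 44 of 2448 reads methylated in SKNO-1 versus 3210 of 3289 in SKNO-siAE.

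TRIM71, the gene of a ubiquitin ligase and RNA-binding protein that is a classic target of let-7, had the most cytosines among the 11 runs of 3 tiles, 118 at chr3:32860001-32861500. The SKNO-1 levels were 0 ± 0 (SD over 39 cytosines), 0.00877 ± 0.0421 (24) and 0.032 ± 0.0748 (55), and the SKNO-siAE levels were 0.979 ± 0.0763, 0.933 ± 0.115 and 0.97 ± 0.0585. Another member lay in its last part at chr3:32933001-32933500, with levels of 0.0798 and 0.992. The promoter also differed, at 0.0004 versus 0.849, so that the low region ran from the promoter into the gene.

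TET1, an enzyme that oxidises methylated cytosine, showed the other arrangement. Its 3 members at chr10:70321001-70322500, in intronic sequence between 1.16 and 2.16 kb from a coding start, had SKNO-1 levels of 0 ± 0 (SD over 17 cytosines), 0.00113 ± 0.00772 (48) and 0.0806 ± 0.149 (12), beside 0.957, 0.966 and 0.956 in SKNO-siAE. The promoter was unmethylated in both libraries, at 0.0296 and 0.0577. In SKNO-1 the low region thus included the start and the tiles after it, and in SKNO-siAE the level rose between them. NPR3, the gene of the clearance receptor for natriuretic peptides, held 3 members at chr5:32713001-32714500, with SKNO-1 levels of 0.0435, 0 and 0 and SKNO-siAE levels of 0.765, 0.863 and 0.693. Its promoter differed as in TRIM71, at 0.0338 versus 0.792.

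CBFA2T3 encodes ETO2, a corepressor of the same family as RUNX1T1. Members made up 2.73% of all comparison tiles, and CBFA2T3 held 5 members among 50, all intronic. Their SKNO-1 levels were 0.0271, 0.0135, 0.00813, 0.0779 and 0.201, and their SKNO-siAE levels 1, 0.944, 0.881, 0.943 and 0.933. The tile whose sequence is shown had 6 of 237 reads methylated in SKNO-1 versus 104 of 104 in SKNO-siAE, so that its few methylated SKNO-1 reads lay outside the middle stretch. Its promoter was at 0.503 and 0.627.

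Of 29 haematopoietic transcription factor genes with a comparison tile, 5 held a member (17.2%, against 8.22% of all genes), with 5 of 169 tiles (2.96%, against 2.73% of all comparison tiles). Here and in the lists below, a tile in more than 1 gene of a list counts once for each of them. PAX5, the B-cell regulator that is often expressed in leukaemia with this fusion, had an intronic tile at chr9:37030001-37030500 with a level of 0.0759 ± 0.133 in SKNO-1 versus 0.891 ± 0.185 in SKNO-siAE (SD over 34 cytosines). Its promoter was lower as well, 0.0939 against 0.865. GATA2, a regulator of blood stem and progenitor cells, had a coding-exon tile at chr3:128202501-128203000 with 0.0326 ± 0.0829 and 0.926 ± 0.142 (SD over 29 cytosines), and a promoter at 0.531 and 0.724. BCL11B, a T-cell regulator, had an intronic tile at 0.301 and 0.924, while its promoter was higher in SKNO-1, at 0.685 and 0.245. RUNX2, a paralogue of RUNX1, had a tile at 0.16 and 0.989, and ZFPM1 is described above.

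Of 15 genes in the list of myeloid surface and granule genes, 3 held a member (20%, against 8.22% of all genes), with 4 of 40 tiles (10%, against 2.73% of all comparison tiles). FLT3, a receptor kinase often mutated in acute myeloid leukaemia, had a tile 0.963 kb from its start in which 2 of 247 reads were methylated in SKNO-1 versus 566 of 641 in SKNO-siAE, and its promoter was low in both libraries, at 0.0601 and 0.108. TNFRSF8, the gene of CD30, had tiles at 0.0591 and 0.17 in SKNO-1 versus 0.892 and 0.96 in SKNO-siAE. NCAM1, the gene of CD56, had a tile at 0.234 and 0.925 near the start of a long noncoding RNA.

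Among DNA methylation and histone modifying enzymes 3 of 29 genes held a member (10.3%, against 8.22% of all genes), with 7 of 504 tiles (1.39%, against 2.73%), so that the share of genes was above and the share of tiles below that of all. Beside TET1 these were UHRF1, in which 0 of 417 reads were methylated in SKNO-1 versus 464 of 501 in SKNO-siAE, and PRDM16, a zinc finger methyltransferase gene rearranged in some leukaemias. The 3 PRDM16 tiles had levels of 0.154, 0.0636 and 0.16 in SKNO-1 versus 0.843, 0.716 and 0.805 in SKNO-siAE, and they were 3 of 181 comparison tiles.

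**Figure D1:**
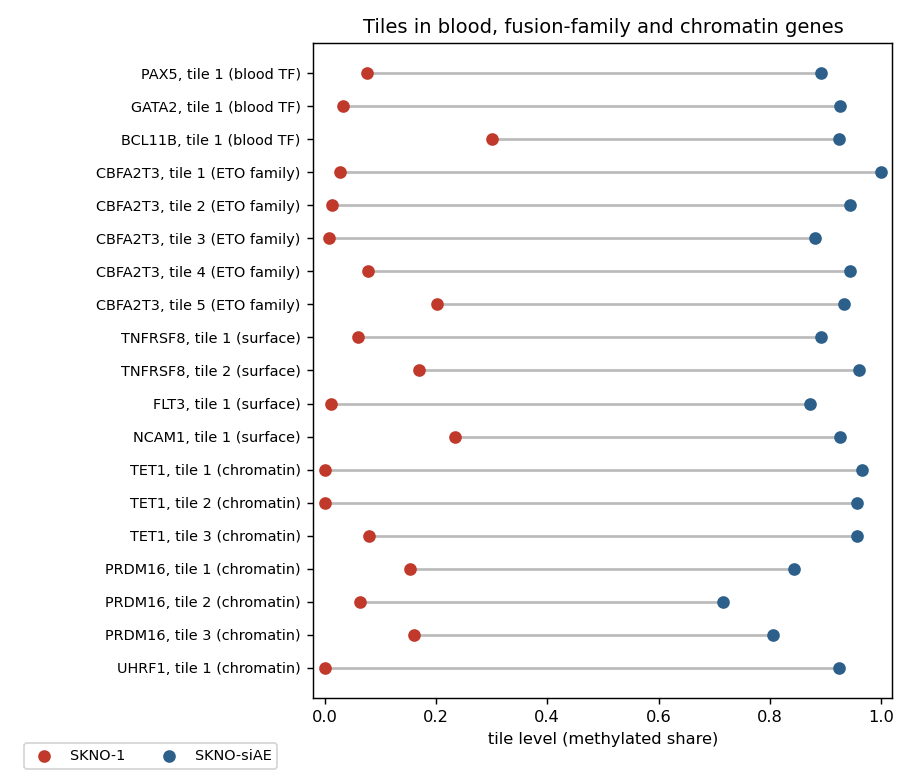
Tile levels (methylated share, 0 to 1) of named members in blood transcription factor genes (blood TF), CBFA2T3 (ETO family), surface genes and chromatin enzyme genes. Each line joins the SKNO-1 level (red) and the SKNO-siAE level (blue) of 1 tile, and the red points lie from 0 in a TET1 tile and in UHRF1 to 0.301 in BCL11B.

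The remaining lists ranged around the background of 8.22% of genes. Wnt and Notch pathway genes had 13 of 60 with a member (21.7%), receptor and signalling kinases 12 of 56 (21.4%), axon guidance genes 11 of 61 (18%), cadherins and adhesion receptors 8 of 53 (15.1%) and ion channels 23 of 173 (13.3%). The shares were 11.1% for collagens, laminins and ADAMTS proteases (8 of 72), 9.91% for homeobox genes (11 of 111), 9.52% for imprinted genes (2 of 21) and 9.04% for solute carriers (16 of 177). Zinc finger genes had 11 of 251 (4.38%). None of the 57 protocadherin genes held a member. Their comparison tiles, counted once for each listed gene that a tile overlapped, numbered 1109. The median difference over these was -0.0219, close to the -0.0197 of all comparison tiles. Genes with more captured tiles have more chances to hold a member, so the shares of tiles are given too, beside 2.73% of all comparison tiles. In the lists a tile counts once for each listed gene it overlaps, while in the 2.73% each tile counts once. They were 5.31% for axon guidance genes, 5.08% for Wnt and Notch pathway genes, 4.48% for ion channels, 4.03% for kinases, 3.64% for cadherins and adhesion receptors and 3.04% for collagens, laminins and ADAMTS proteases. The shares of tiles were below that of all comparison tiles for solute carriers (2.48%), zinc finger genes (2.44%), imprinted genes (2.31%) and homeobox genes (2.01%).

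Within these lists, LRP5, a Wnt co-receptor gene, held 3 intronic members with SKNO-1 levels of 0, 0 and 0.0379 and SKNO-siAE levels of 0.977, 0.96 and 0.875. WNT1 had coding-exon tiles at 0 and 0.844 and at 0.306 and 0.906, and HES5, a Notch target gene, one at 0.0102 and 0.839. RET, the receptor kinase for the GDNF family of ligands, had 2 adjacent coding-exon members at chr10:43600001-43601000, with 5 of 159 and 9 of 840 reads methylated in SKNO-1 versus 115 of 115 and 536 of 572 in SKNO-siAE. Its promoter was low in both libraries, at 0.162 and 0.1. IGF1R had a tile at 0.0808 and 0.991, and PRKCZ tiles at 0.0642 and 0.252 in SKNO-1 versus 0.739 and 0.913 in SKNO-siAE.

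Near the end of the calcium channel gene CACNA1C, 3 members lay at a long noncoding RNA start. The 2 that adjoined each other at chr12:2800001-2801000 held 122 cytosines with levels of 0.0111 and 0.00339 in SKNO-1 versus 0.945 and 0.814 in SKNO-siAE, and the third had 0 of 842 and 635 of 764 methylated reads. The adhesion receptor gene ADGRL1 had a tile at its 3′ end with 16 of 1416 reads methylated in SKNO-1 versus 730 of 730 in SKNO-siAE. EPHA2, an ephrin receptor gene, had tiles at 0.00396 and 0.288 in SKNO-1 versus 0.887 and 0.917 in SKNO-siAE, and its promoter was also lower, 0.3 against 0.843. UNC5B and UNC5A, netrin receptor genes, had tiles at 0.136 and 0.00463 in SKNO-1 versus 0.961 and 0.804 in SKNO-siAE.

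The homeobox gene DLX2 had members at 0.0145 and 0.0856 in SKNO-1 versus 0.996 and 0.889 in SKNO-siAE, with a promoter near 0 in both libraries (0.00796 and 0.00229). CUX1, another homeobox gene, had a tile at 0.119 and 0.955 and a promoter likewise near 0 (0 and 0.00541). The zinc finger gene ZBTB46, known from dendritic cells, had adjacent tiles at 0 and 0.0429 in SKNO-1 versus 0.862 and 0.867 in SKNO-siAE. COL4A2, a basement membrane collagen gene, held 4 members with higher SKNO-1 levels, from 0.105 to 0.254, and SKNO-siAE levels from 0.802 to 0.964. TBC1D16, a Rab regulator, had a tile in which 24 of 1256 reads were methylated in SKNO-1 versus 1363 of 1404 in SKNO-siAE. TP73, a p53 relative listed with the imprinted genes, had 3 members from 0.11 to 0.355 in SKNO-1 and from 0.919 to 0.968 in SKNO-siAE, and RB1, also on that list, had 1 member, outside its canonical transcript, at 0 and 0.696.

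Other lists gave similar pairs of values. The solute carrier gene SLC18A2, which encodes a vesicular transporter of monoamines, had a tile at 0.145 in SKNO-1 versus 0.922 in SKNO-siAE, with a promoter at 0.462 versus 0.862. SLC29A4, a transporter gene of the equilibrative nucleoside family, had a coding-exon tile at 0.0389 versus 0.974, and SLC8A2, a sodium-calcium exchanger gene, had adjacent coding-exon tiles at 0.0725 and 0.123 versus 0.886 and 0.877. RAPGEFL1, a gene of the Rap exchange factor family, had 1 tile with 72 measured cytosines at 0.0287 versus 0.818. The planar polarity cadherin gene CELSR1 had tiles at 0.16 and 0.0106 versus 0.937 and 0.675, and the adhesion receptor gene ADGRA1 had 3 members from 0 to 0.208 versus 0.829 to 0.894. Some members could not be given to 1 gene: 53 lay in more than 1 protein-coding gene, among them 2 tiles shared by the calcium channel subunit gene CACNA2D4 and LRTM2, at 0.063 and 0.259 versus 0.967 and 0.936, and a tile shared by the homeobox gene VAX2 and ATP6V1B1, at 0.0843 versus 0.794. Among collagens, COL23A1 had tiles at 0.0385 and 0.307 versus 0.876 and 0.937, and COL18A1 one at 0.0222 versus 0.623. The zinc finger genes ZNF704 and ZNF273 had 2 members each, at 0 and 0.00256 versus 0.96 and 0.689 and at 0.0806 and 0.312 versus 0.838 and 0.923.

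Further genes with 4 members each included RNF220, ARHGEF10 and RPS6KA2. RNF220, a ubiquitin ligase gene, had its 4 members within 12.3 kb of its start, with SKNO-1 levels from 0.0018 to 0.0924 and SKNO-siAE levels from 0.803 to 0.94, and a promoter at 0.128 and 0.489. ARHGEF10 had a run of 3 intronic members at 0.00472, 0.00772 and 0.291 in SKNO-1 versus 0.953, 0.889 and 0.96 in SKNO-siAE, and 1 more at 0 and 0.635. RPS6KA2, a ribosomal S6 kinase gene, had 4 intronic members spread over its length, from 0.0278 to 0.08 in SKNO-1 and from 0.78 to 0.968 in SKNO-siAE. Among genes with near-identical copies, ATAD3B held a run of 3 members, and reads from such copies could have been placed in the wrong gene.

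By chromosome, members made up 4.26% of the comparison tiles on chromosome 20, 3.76% on chromosome 1 and 3.61% on chromosome 19, and 1% on chromosome 18 (5 of 499). The median log2 read ratio over the comparison tiles of chromosomes 20, 1, 19 and 18 was 0.00, 0.05, -0.08 and -0.56, and over their members 0.18, -0.11, -0.33 and -0.61. The part of read numbers in the shares was not tested.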

How the data were processed

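MCC-Seq data of 2 libraries, SKNO-1 and SKNO-siAE, were used. Adapters were removed, reads were trimmed for quality and length and aligned to hg19 with BSMAP, per the methods of the study. The submitters' processing notes name cutadapt 1.4.2 and BSMAP 2.73. For each CpG cytosine and strand, the authors deposited the counts of methylated and unmethylated reads, not normalized, at sites with at least 5 reads. All 3125690 shared autosomal sites fell on a CpG of the reference.

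Levels were averaged over the cytosines of each tile, without weights, so that shallow sites, whose levels are coarse, count as much as deep ones. Genes and starts came from GENCODE release 44 lifted to GRCh37. Shares of reads have 95% Wilson intervals, which cover counting error only. With 1 library per line and members chosen on the difference, no test was made. The members and lists were chosen with earlier results of these data known. Named genes were the 12 with the lowest tile difference, the 8 with most members, the 5 longest runs (by cytosines among the 11 of 3 tiles), up to 3 per gene list with the most reads, and the 3 tiles on each side of the limit. Some items under this rule are not reported here. RUNX2 and ATAD3B were named after their values were seen. The code was tested on simulated data. Alternatives were other minimums of reads and cytosines, pooled reads, merged or single strands, a shifted grid, other limits, other promoter intervals, another island definition and balanced read numbers. Tools were samtools 1.23.1, pysam 0.24.0, pandas 2.3.3, numpy 2.4.6, scipy 1.17.1 and matplotlib 3.10.9 under Python 3.11.15.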

Additional observations from a re-analysis of the deposited data

How the results depend on the processing

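Of 34 recomputed values, 25 stayed within the range set around the main value and 9 moved out of it. They were counts, medians and shares, which have no direction, so they could not show a reversal. For the number of members, 620 at a limit of -0.7 and 1318 with merged strands counted as within the range, while 576 and 1905 counted as moved. The number of members was 455 with at least 10 reads per cytosine, 394 with at least 20 cytosines, 1905 with at least 5 cytosines, 576 with a promoter of 3000 bp on each side and 296 with read numbers within 25%. Each of these settings also changes how many tiles are tested, and the share of gene-body tiles ranged from 2.03% to 2.63% over them. At 10 reads, the 455 members lay in 408 genes and formed 34 runs of at least 2 adjacent tiles, and 400 of the 420 original members that could still be tested were kept. Island-like sequence was found in 44.4% of the members at a limit of -0.7 and in 28.9% with a GC content of at least 55% and a ratio of at least 0.65. Pooling the reads of a tile gave 914 members, of which 836 were members by the mean over cytosines, and a grid shifted by 250 bp gave 894. At the minimum of 10 cytosines with 5 reads, the level of a tile rests on as few as 50 read counts. No paired analysis was possible because there was 1 library per line. The median levels were 0.0448 to 0.053 in SKNO-1 and 0.909 to 0.917 in SKNO-siAE under the 4 settings in which they were recomputed.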
